A study of Mus musculus with 4 samples.

Results

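The genes of fibroblast growth factor (FGF) signalling were described on 4 Affymetrix arrays, 1 array for each of 4 kinds of mouse cell. Members were taken by name: the FGF ligands, their receptors Fgfr1 to Fgfr4 and Fgfrl1, the carriers Fgfbp1 and Fgfbp3, the adaptors Frs2 and Frs3, the Flrt genes, the Sprouty and Spred inhibitors, the phosphatases Dusp4 to Dusp7 and the ETS factors Etv1, Etv4 and Etv5. Of 48 such genes, 46 were measured by probe sets with 1 gene symbol, out of 18193 genes in all; Etv1 and Frs2 were not among them. The first array carried the cells sorted for a green fluorescent reporter of HB9, a motor neuron factor, from a transgenic ES line. Per the labels that line was given retinoic acid (0.1 uM), purmorphamine (0.2 uM) and Sonic hedgehog over days 5 to 9, yet its sort is dated day 8, and the labels do not settle this conflict. The others carried granule cells of the cerebellum at postnatal day 6, sorted Sox1 neural stem cells whose source the labels do not give, and undifferentiated ES cells. The HB9 ES line grew with leukemia inhibitory factor on mouse embryonic fibroblasts that mitomycin C had stopped from dividing, per the labels. No group has a second array, so no difference below has a replicate check or a p-value.

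FGF ligands bind receptor tyrosine kinases together with heparan sulfate, and the active receptor passes its signal through FRS adaptors to the RAS-ERK kinase cascade. ERK activity induces its own brakes, the Sprouty, Spred and DUSP genes, and the ETS factors Etv4 and Etv5, which are common readouts of the pathway. In ES cells an autocrine ligand, FGF4, drives ERK and helps cells to leave self-renewal, whereas in the developing brain FGFs act on progenitor growth and patterning. A subgroup of the family, Fgf11 to Fgf14, encodes proteins that stay in the cell and bind voltage-gated sodium channels.

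The marker genes of the cell types went against 1 label. On the HB9-GFP+-labelled array, 0 of 6 motor neuron markers were detected, while 8 of 8 pluripotency markers and 7 of 7 fibroblast markers were. Olig2, listed with the oligodendrocyte and not the motor neuron markers, was detected there at 320.6. It was at 896.0 with granule cells, 78.2 with Sox1 cells and 0.9 with ES cells. The granule array had 6 of 6 granule neuron markers, with 5 of 5 astrocyte, 5 of 5 oligodendrocyte and 6 of 7 fibroblast markers besides. The Sox1 array had 6 of 6 neural stem cell markers and 6 of 8 pluripotency markers, and the ES array 8 of 8 pluripotency markers and 1 of 7 fibroblast markers. Granule neuron markers were also detected elsewhere, 2 of 6 on the HB9-GFP+-labelled, 5 of 6 on the Sox1 and 3 of 6 on the ES array. Neural stem cell markers were detected in 2 of 6 cases on the HB9-GFP+-labelled, 4 of 6 on the granule and 3 of 6 on the ES array. Sox1 itself was at 175.6 on the HB9-GFP+-labelled array, 437.7 on the granule, 2262.1 on the Sox1 and 193.5 on the ES array, and Mnx1, which encodes HB9, was at 15.9, 6.3, 13.7 and 5.8 on the same arrays. The ratio of 3' to 5' signal of the actin control lay between 2.29 and 5.08 and was highest on the Sox1 array.

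A signal is the deposited linear intensity of the probe set that represents the gene. A gene was called detected at a signal of 157.5, which is 1 log2 unit above a low level of 78.8, and was called higher or lower where the brighter of both signals was detected and they differed by at least 4-fold, with values under the low level set to it. A fold against a value under the low level is a lower bound. Where the dimmer signal lay between both levels, the signals are given with no fold. The deposited intensities of different probe sets are not compared with each other.

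Promoter windows of 4 genes are shown first, because their genes had a pattern over the arrays that the results below turn on. They are those of Fgf4 and Etv5, which were high with ES cells and on the HB9-GFP+-labelled array, of Fgf7, high on the HB9-GFP+-labelled array alone, and of Fgfbp3, high on the Sox1 and granule arrays. Each runs from 250 bases before to 50 bases after a gene start, 5' to 3' on the gene's strand, from RefSeq on GRCm38.p6. The windows are chr7:144861136-144861435 on the plus strand (Fgf4), chr16:22439521-22439820 on the minus strand (Etv5, the first of 2 listed starts), chr2:126034408-126034707 on the plus strand (Fgf7) and chr19:36919550-36919849 on the minus strand (Fgfbp3). Capitals mark matches on either strand to the GC box, spelled GGGCGG, to the box named for its letters CCAAT, and to the TATA box core, spelled TATAAA.
Fgf4: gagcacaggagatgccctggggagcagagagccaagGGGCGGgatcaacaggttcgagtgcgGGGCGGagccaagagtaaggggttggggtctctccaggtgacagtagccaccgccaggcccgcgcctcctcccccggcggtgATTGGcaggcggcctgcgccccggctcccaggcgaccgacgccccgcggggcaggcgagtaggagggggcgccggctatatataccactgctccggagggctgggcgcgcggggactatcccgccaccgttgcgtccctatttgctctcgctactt
Etv5: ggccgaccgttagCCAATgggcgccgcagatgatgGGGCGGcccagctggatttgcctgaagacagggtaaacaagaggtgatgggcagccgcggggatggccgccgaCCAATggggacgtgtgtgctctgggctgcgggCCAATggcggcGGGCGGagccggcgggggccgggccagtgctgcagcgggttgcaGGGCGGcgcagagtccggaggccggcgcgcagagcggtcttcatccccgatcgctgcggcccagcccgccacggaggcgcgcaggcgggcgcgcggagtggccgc
Fgf7: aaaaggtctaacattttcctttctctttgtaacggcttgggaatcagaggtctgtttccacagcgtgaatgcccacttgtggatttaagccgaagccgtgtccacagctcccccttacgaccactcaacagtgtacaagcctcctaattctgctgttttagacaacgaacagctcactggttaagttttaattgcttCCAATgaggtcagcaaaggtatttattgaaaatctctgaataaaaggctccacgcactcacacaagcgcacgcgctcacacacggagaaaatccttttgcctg
Fgfbp3: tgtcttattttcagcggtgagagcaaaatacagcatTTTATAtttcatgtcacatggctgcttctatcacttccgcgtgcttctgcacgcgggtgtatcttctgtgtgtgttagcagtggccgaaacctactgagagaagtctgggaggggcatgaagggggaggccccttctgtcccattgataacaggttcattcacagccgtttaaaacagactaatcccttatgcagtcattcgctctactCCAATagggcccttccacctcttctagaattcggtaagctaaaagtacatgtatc

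In the Fgf4 window there were 2 GC boxes and 1 CCAAT box, and in that of Etv5 3 of each, with a GC content of 69.7% and 74%. The windows of Fgf7 and Fgfbp3 held no GC box and 1 CCAAT box each, at 45.7% and 46.7% GC. Windows were listed for 34 of the 46 members, 42 in all. Of these, 61.9% held a GC box and 38.1% a CCAAT box, against 35.7% and 37.4% of all 32851 windows. The ETS letters CCGGAAG stood in 1 member window, that of Fgfrl1, and in 8.86% of all windows. The octamer core ATGCAAA stood in 1, that of Fgf12, and in 4.63% of all. TATAAA stood in 5 member windows, Fgfbp3 among them, and in 13.6% of all. The Fgfbp3 match began at -214 from the gene start, on the opposite strand. Other spellings of the TATA box were not looked for, in the Fgf4 window or elsewhere. The motifs did not overlap in the printed windows, the GC and CCAAT boxes were added after the other 3 had given a single match there, and a match describes letters and not a bound site.

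Of the 46 members, 32 were detected on at least 1 array and 14 on none, and 13 were detected on all 4. Over all genes, 63.6% were detected on at least 1 array and 40.6% on all 4. The HB9-GFP+-labelled array had 19 members detected, the granule array 24, the Sox1 array 21 and the ES array 20, against 51.3%, 52.3%, 51.5% and 51.8% of all genes. The members called in at least 1 of the 6 comparisons numbered 17, against 19.3% of all genes. Among the 32 detected members the brightest array was the HB9-GFP+-labelled array for 6 (18.8%), the granule array for 12 (37.5%), the Sox1 array for 12 (37.5%) and the ES array for 2 (6.25%). Over all detected genes these shares were 27.8%, 28.4%, 20.6% and 23.2%. Some members were near ties. Fgf4, counted for the ES array, was at 2869.7 there and 2681.3 on the HB9-GFP+-labelled array. Fgfr4, also counted there, was at 163.3 with ES cells and 146.7 with granule cells. Flrt3, counted for the granule array, was at 1112.6 there and 1087.0 on the Sox1 array.

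**Figure D1:**
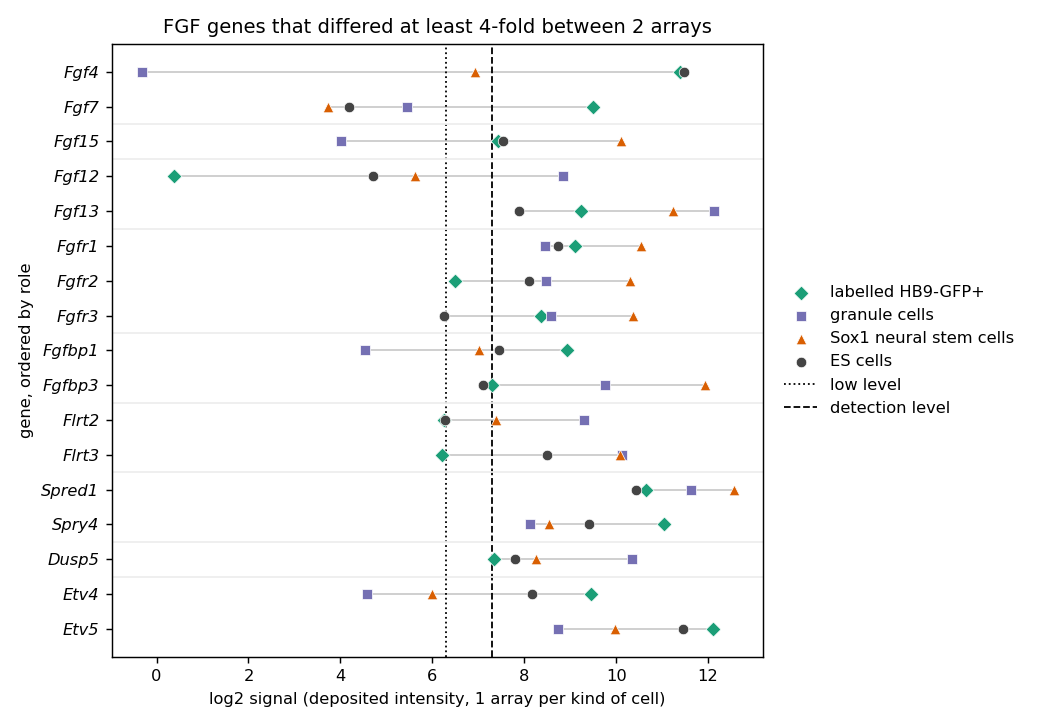
The log2 signal of each of the 17 called FGF genes (rows, ordered by role) on the HB9-GFP+-labelled array (diamonds), the granule (squares), the Sox1 (triangles) and the ES array (circles), with 1 array per kind of cell and no error bar. Dotted and dashed lines mark the low level (78.8) and the detection level (157.5). Fgf4 and Etv5 stand highest on the ES array and the HB9-GFP+-labelled array, the receptors Fgfr1 to Fgfr3 on the Sox1 array, and Fgf12, Fgf13 and Dusp5 on the granule array.

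Among the secreted ligands, Fgf4 was high on the arrays with all pluripotency markers detected. Its signal was 2681.3 on the HB9-GFP+-labelled array, 0.8 with granule cells, 122.6 with Sox1 cells and 2869.7 with ES cells. Fgf4 is transcribed in pluripotent cells under the control of Oct4 and Sox2. It was at least 34-fold higher on the HB9-GFP+-labelled array than on the granule array, at least 36.4-fold lower on the granule than on the ES array, and below detection on the Sox1 array. A second Fgf4 probe set gave 2696.6, 5.9, 14.9 and 2543.6 in the same order, while its other probe sets reached 165.9 and 85.0 at most. When the HB9-GFP+-labelled array was left out of the choice of probe set, Fgf4 was represented by the one at 128.0 with ES cells and its calls against ES cells were lost. Fgf4 was the single member called higher over each neural array on the HB9-GFP+-labelled array and with ES cells alike, a pattern that 1.33% of all genes had. The pluripotency markers moved with it. Their summed signal was 94252.9 on the HB9-GFP+-labelled array, 1816.1 on the granule, 7295.5 on the Sox1 and 93039.3 on the ES array, and their part in the Fgf4 values was not tested.

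Fgf7, the keratinocyte growth factor that mesenchyme makes for neighbouring epithelium, was set apart on the HB9-GFP+-labelled array. Its signal was 718.3 there, 43.6 with granule cells, 13.2 with Sox1 cells and 18.2 with ES cells, at least 9.12-fold higher than on each of the others. Its other probe set stayed under detection on all arrays, at 110.3, 23.2, 38.7 and 66.8, and with the mean over both each difference was 1.84 log2 units, short of a call. Of all genes, 0.412% were set apart on this array. Of 7 fibroblast markers, 7 were called higher on this array than on the Sox1 array and 6 than on the ES array. Only 2 were called higher than on the granule array, where 6 of 7 were detected. Over all genes these shares were 3.22%, 1.11% and 5.53%. The summed signal of the fibroblast markers was 15757.8 on the HB9-GFP+-labelled array, 4825.8 on the granule, 1006.3 on the Sox1 and 743.3 on the ES array. Dcn, a matrix proteoglycan gene and 1 of those 2, was at 3375.9, 494.6, 51.6 and 24.0. Of the 7 fibroblast markers, 1 was detected on the Sox1 array and 1 on the ES array. The part of the fibroblast markers in the Fgf7 value was not tested. In such samples, fewer cells of a type and less RNA per cell cannot be told apart.

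Fgf15, the mouse counterpart of human FGF19, is made by neural progenitors as well as the gut. It was at 171.2 on the HB9-GFP+-labelled array, 16.2 with granule cells, 1106.7 with Sox1 cells and 185.2 with ES cells. The Sox1 array thus stood apart from the other three, and 0.616% of all genes were set apart there. Fgf15 was 5.98-fold higher on the Sox1 array than on the ES array, 6.46-fold lower on the HB9-GFP+-labelled array than on the Sox1 array, and at least 14.1-fold lower on the granule than on the Sox1 array. A single probe set measured it. The other hormone-like ligands, Fgf21 and Fgf23, lay between 5.1 and 42.7 on all arrays and were not detected.

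The remaining secreted ligands were dim. Fgf9, a paracrine ligand, was at 53.7 on the HB9-GFP+-labelled array, 244.9 with granule cells, 107.2 with Sox1 cells and 61.5 with ES cells, and so was detected on the granule array alone. Its further probe set gave 17.0 on the HB9-GFP+-labelled array, 601.5 with granule cells, 135.5 with Sox1 cells and 23.3 with ES cells, so Fgf9 passed 4-fold on 1 of 2 probe sets. Fgf1 was detected on the granule array at 196.5 and Fgf18 on the Sox1 array at 160.2, both close to the detection level. A further 10 secreted ligands (Fgf2, Fgf3, Fgf5, Fgf6, Fgf8, Fgf10, Fgf16, Fgf17, Fgf20 and Fgf22) were detected on no array, between 0.5 and 152.0. The highest of these values was that of Fgf5, a ligand of the primed epiblast, on the Sox1 array; it was at 23.2 on the HB9-GFP+-labelled array, 72.1 with granule cells, 152.0 with Sox1 cells and 10.4 with ES cells. A dark probe set sets no bound on the RNA, since the probe set may fail.

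The 3 detected intracellular members were each highest on the granule array. Fgf13, whose product binds sodium channels and microtubules, was at 607.0 on the HB9-GFP+-labelled array, 4455.6 with granule cells, 2414.4 with Sox1 cells and 237.2 with ES cells. It was 18.8-fold higher on the granule and 10.2-fold higher on the Sox1 array than on the ES array, and 7.34-fold lower on the HB9-GFP+-labelled array than on the granule array. Against the Sox1 array the HB9-GFP+-labelled array was 3.98-fold lower, just short of a call. Its other probe set was dark, at 49.9 or less, and with the mean over both the difference between the Sox1 and the ES array was 0.0 log2 units and no longer called. Fgf12 was at 1.3 on the HB9-GFP+-labelled array, 463.0 with granule cells, 49.2 with Sox1 cells and 26.3 with ES cells, detected on the granule array alone. It was at least 5.88-fold higher on the granule array than on each other array, and a second probe set gave 267.5 on the granule array and 63.6 or less elsewhere. With the mean over its 3 probe sets, 1 of them undetected, each of these differences was 1.58 log2 units in size, short of a call. Fgf11 was likewise detected on the granule array alone, at 263.0, and its differences of at least 3.34-fold were not called. Fgf14 was not detected, although another of its probe sets read 136.6 on the granule array. Pan-neuronal markers also had their highest summed signal on the granule array. With 1 of 6 detected on the HB9-GFP+-labelled array, 6 of 6 on the granule, 5 of 6 on the Sox1 and 2 of 6 on the ES array, their summed signals were 889.8, 35957.9, 4564.1 and 741.2. On the Sox1 array, with 5 of 6 of these markers, Fgf12 was undetected. The part of these markers in the Fgf12 and Fgf13 values was not tested.

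The carriers of secreted FGFs, which release ligands from the matrix, were highest on different arrays. Fgfbp3 was at 156.4 on the HB9-GFP+-labelled array, 867.8 with granule cells, 3934.1 with Sox1 cells and 137.1 with ES cells. It was called higher on the granule and on the Sox1 array than on the ES array, and was 4.53-fold lower on the granule than on the Sox1 array, a call lost with centring on reference genes. It was the member called in most comparisons, 5 of 6. Fgfbp1 was highest on the HB9-GFP+-labelled array, at 490.6, with 23.1 with granule cells, 128.7 with Sox1 cells and 174.3 with ES cells. It was called once, at least 6.23-fold higher on the HB9-GFP+-labelled array than on the granule array.

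The signalling receptors Fgfr1, Fgfr2 and Fgfr3 were each highest on the Sox1 array. Fgfr1, the main FGF receptor of ES cells, was detected everywhere, at 548.6 on the HB9-GFP+-labelled array, 347.7 with granule cells, 1497.7 with Sox1 cells and 428.4 with ES cells. Its single call was the granule array, 4.31-fold lower than the Sox1 array, and the Sox1 array was 3.50-fold higher than the ES array. Fgfr2 was at 90.6 on the HB9-GFP+-labelled array, 357.8 with granule cells, 1264.2 with Sox1 cells and 277.2 with ES cells. It was 4.56-fold higher on the Sox1 than on the ES array and was undetected on the HB9-GFP+-labelled array. The calls of Fgfr1 and Fgfr2 rest on probe sets of the kind shared between transcripts. The Fgfr1 call was also lost with centring on reference genes, and was -1.20 log2 units with the mean over probe sets. Without such probe sets neither was called, and with the mean over its 3 probe sets the log2 difference of Fgfr2 between the Sox1 and the ES array was -0.09.

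Fgfr3, which marks ventricular zone progenitors and astrocytes, separated the ES array from the rest. Its signal was 329.4 on the HB9-GFP+-labelled array, 384.5 with granule cells, 1324.6 with Sox1 cells and 76.2 with ES cells. It was at least 16.8-fold higher on the Sox1, at least 4.88-fold higher on the granule and at least 4.18-fold higher on the HB9-GFP+-labelled array than on the ES array. It was 4.02-fold lower on the HB9-GFP+-labelled array than on the Sox1 array, a call that quantile normalization took to -1.87 log2 units. The difference between the HB9-GFP+-labelled array and the ES array fell short of 4-fold once arrays were centred on reference genes, at 1.61 log2 units. Its other probe set was dark, at 36.3 or less, and with the mean over both every Fgfr3 call was lost. The differences from the ES array were then 0.0 log2 units for the HB9-GFP+-labelled, 0.58 for the granule and 1.06 for the Sox1 array. Astrocyte markers were detected in 2 of 5 cases on the HB9-GFP+-labelled array, 5 of 5 on the granule, 1 of 5 on the Sox1 and 2 of 5 on the ES array. Their summed signals were 14815.9, 22093.0, 20300.2 and 14930.6, most of which was Gja1, a gap junction gene, on all but the granule array. Gja1 was at 14483.4 on the HB9-GFP+-labelled array, 8033.9 with granule cells, 20117.7 with Sox1 cells and 14463.1 with ES cells. The other 4 markers (Gfap, Aqp4, Aldh1l1 and S100b) lay between 1.6 and 269.9 on the HB9-GFP+-labelled array, 1422.2 and 8741.8 on the granule, 26.8 and 73.8 on the Sox1 and 13.4 and 385.4 on the ES array. The part of these markers in the Fgfr3 values was not tested. Fgfr4 passed the detection level on the ES array alone, at 163.3, close to that level, and was at 146.7 with granule cells. Fgfrl1, a receptor without a kinase domain, was at 393.5 on the HB9-GFP+-labelled array, 430.0 with granule cells, 1080.6 with Sox1 cells and 792.8 with ES cells. Neither gene was called.

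Flrt2 and Flrt3 encode membrane proteins that bind FGF receptors as well as guidance receptors. Flrt3 was called lower on the HB9-GFP+-labelled array than on each other array, at 74.3, against 1112.6 with granule cells, 1087.0 with Sox1 cells and 361.8 with ES cells. The HB9-GFP+-labelled array was at least 14.1-fold lower than the granule, at least 13.8-fold lower than the Sox1 and at least 4.59-fold lower than the ES array, and a second probe set, at 101.5, 756.9, 698.1 and 194.8, kept that order. The call against the ES array fell to -1.96 log2 units with quantile normalization and to -1.61 with the mean over probe sets. Flrt2 was at 75.8 on the HB9-GFP+-labelled array, 633.9 with granule cells, 167.8 with Sox1 cells and 78.1 with ES cells, and was at least 8.05-fold higher on the granule than on the ES array and at least 8.05-fold lower on the HB9-GFP+-labelled array than on the granule array. With the mean over its probe sets both were 1.89 log2 units in size and not called. Flrt1 was detected on the granule array alone, at 197.7. The adaptor gene Frs3 was detected on all arrays, between 191.5 and 356.7, with no call.

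**Figure D2:**
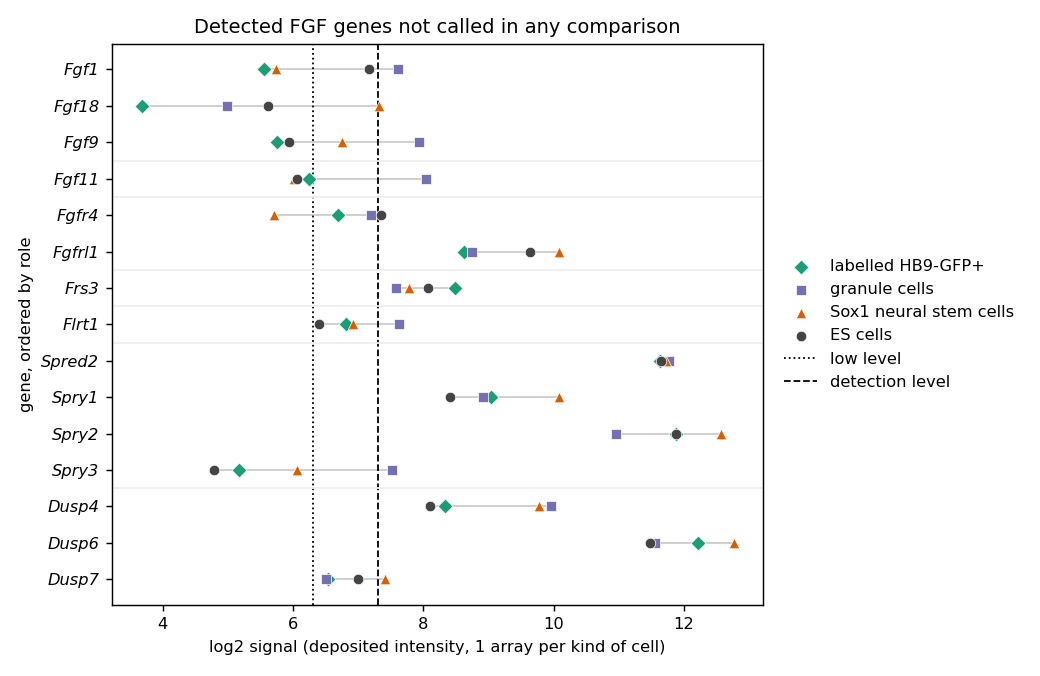
The log2 signal of the 15 detected FGF genes that were called in no comparison (rows, ordered by role) on the same 4 arrays, with 1 array per kind of cell. Spred2 lies between 3171.1 and 3486.9 on the 4 arrays, while Spry1, Spry2 and Dusp6 stand highest on the Sox1 array.

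The feedback genes did not move as a block. Etv5 and Etv4, the ETS factors that FGF signalling induces, were highest on the HB9-GFP+-labelled array. Etv5 was at 4424.5 there, 426.4 with granule cells, 1009.0 with Sox1 cells and 2791.3 with ES cells. It was 10.4-fold higher on the HB9-GFP+-labelled array than on the granule array and 4.39-fold higher than on the Sox1 array, and 6.55-fold lower on the granule than on the ES array. Centring on reference genes took the difference from the Sox1 array to 1.65 log2 units, below 4-fold. Etv4 was at 703.6 on the HB9-GFP+-labelled array, 23.8 with granule cells, 63.7 with Sox1 cells and 287.6 with ES cells. It was detected on those arrays that had Fgf4 detected and on no other, and was at least 8.93-fold higher on the HB9-GFP+-labelled array than on the granule and the Sox1 array. With the mean over its undetected second probe set as well, both were 1.79 log2 units and not called. For Etv5 over the Sox1 array that mean gave 1.74.

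Of the Sprouty inhibitors, Spry4 had the same order of arrays as Etv5. Its signal was 2092.6 on the HB9-GFP+-labelled array, 280.7 with granule cells, 373.0 with Sox1 cells and 679.2 with ES cells, with further probe sets at 835.9, 91.0, 127.8 and 264.2 and at 270.1, 52.2, 36.7 and 98.5. It was 7.45-fold higher on the HB9-GFP+-labelled array than on the granule array, 5.61-fold higher than on the Sox1 array, and 3.08-fold higher than on the ES array, the last not called. Centring on reference genes removed the call against the granule array. Spry2, by contrast, was highest on the Sox1 array, with 3750.1 on the HB9-GFP+-labelled array, 1988.8 with granule cells, 6056.2 with Sox1 cells and 3761.6 with ES cells, and was called nowhere. Spry1 was at 527.4 on the HB9-GFP+-labelled array, 484.5 with granule cells, 1086.2 with Sox1 cells and 340.8 with ES cells, again with no call. Spry3 was detected on the granule array alone, at 183.3.

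The Spred genes encode membrane-bound inhibitors that recruit neurofibromin to RAS. Spred1 was at 1605.0 on the HB9-GFP+-labelled array, 3155.9 with granule cells, 6020.0 with Sox1 cells and 1379.6 with ES cells, and was 4.36-fold higher on the Sox1 than on the ES array, which fell to 1.71 log2 units with the mean over its 8 probe sets. Spred2 lay between 3171.1 and 3486.9 on the probe set that represents it. A further probe set also varied little, at 926.6 on the HB9-GFP+-labelled array, 1064.5 with granule cells, 989.9 with Sox1 cells and 860.8 with ES cells. Other detected probe sets varied more. One was at 177.8 on the HB9-GFP+-labelled array, 593.4 with granule cells, 173.5 with Sox1 cells and 319.4 with ES cells, and another at 173.3, 269.1, 155.9 and 346.0. Spred3 was not detected, with its highest signal, 151.6, on the Sox1 array.

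The ERK phosphatases also split. Dusp5, a nuclear phosphatase of ERK, was at 163.5 on the HB9-GFP+-labelled array, 1296.8 with granule cells, 306.6 with Sox1 cells and 223.4 with ES cells. The granule array was set apart, 5.80-fold higher than the ES array and 4.23-fold higher than the Sox1 array, and the HB9-GFP+-labelled array was 7.93-fold lower than it. The call against the Sox1 array was lost with quantile normalization. Dusp6, the cytoplasmic ERK phosphatase, was at 4742.6 on the HB9-GFP+-labelled array, 3018.5 with granule cells, 6946.7 with Sox1 cells and 2861.2 with ES cells, a span of less than 4-fold. Dusp4 was at 323.0, 995.5, 878.8 and 275.0 on the same arrays and stood 3.62-fold higher on the granule and 3.20-fold higher on the Sox1 than on the ES array, also without a call. Dusp7 was detected on the Sox1 array alone, at 170.2. Microglia and vessel markers were detected in 1 of 6 cases on the HB9-GFP+-labelled array, 2 of 6 on the granule, 0 of 6 on the Sox1 and 1 of 6 on the ES array, with summed signals of 367.8, 4801.7, 197.0 and 424.1. Those on the granule array were the microglia markers Csf1r and Cx3cr1, at 4072.5 and 510.0. On the HB9-GFP+-labelled and ES arrays it was Pecam1, at 185.2 and 232.8, against 4.0 with granule cells. The vessel genes Cdh5 and Kdr of the same list were undetected on both. They were at 31.0 and 41.1 on the HB9-GFP+-labelled array and at 38.4 and 22.8 on the ES array. The part of these markers in the Dusp5 value was not tested.

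**Figure D3:**
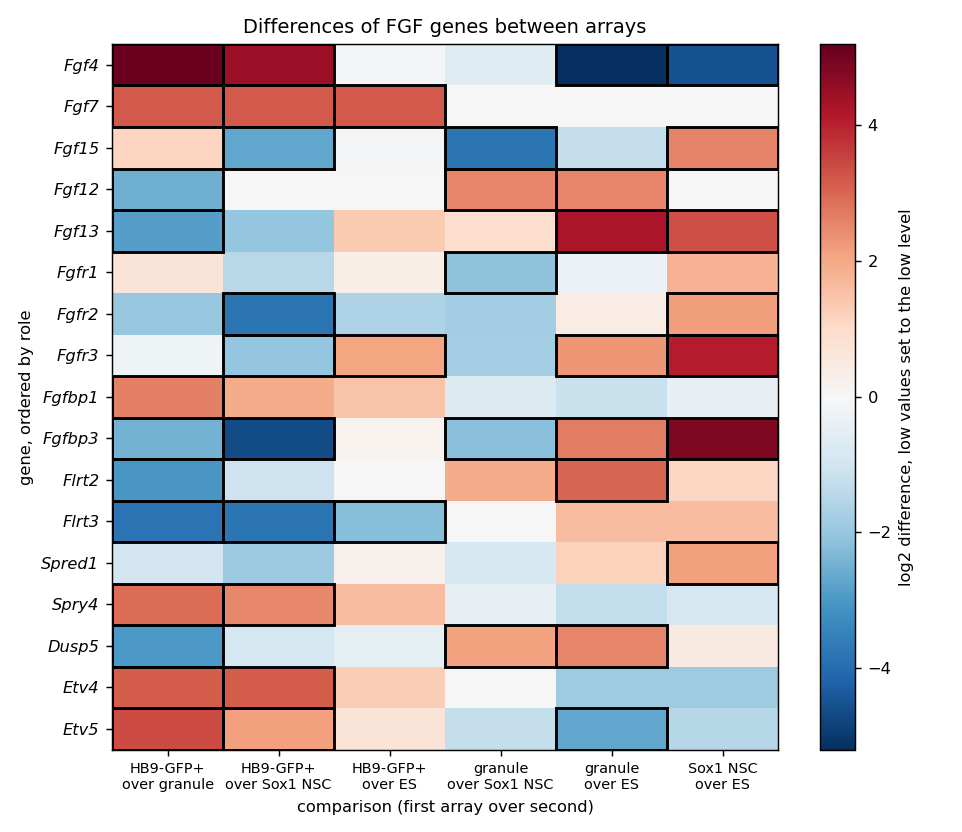
The log2 difference (colour, with values under the low level set to it) of the 17 called FGF genes in the 6 comparisons, first array over second, with called differences outlined in black. Fgf4, Fgf7, Spry4, Etv4 and Etv5 are red and outlined in both comparisons of the HB9-GFP+-labelled array with the neural arrays, and 3 cells are outlined in its comparison with ES cells (Fgf7, Fgfr3 and Flrt3).

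Of the 6 comparisons, that of the HB9-GFP+-labelled array with the ES array had the fewest members called. There 2 members were higher and 1 lower, against 1.11% and 0.813% of all genes, and the split was 1 and 1 with centring on reference genes and 2 and 0 with quantile normalization, where all genes were at 0.638% and 1.56% and at 1.27% and 0.599%. Against the granule array 6 were higher and 6 lower, with backgrounds of 5.53% and 7.41%, and against the Sox1 array 5 were higher and 5 lower, with backgrounds of 3.22% and 3.97%. Centring on reference genes gave 5 higher and 10 lower against the granule array and 4 higher and 7 lower against the Sox1 array. All genes shifted the same way with it, to 2.45% higher and 14.3% lower against the granule array and to 2.11% higher and 5.71% lower against the Sox1 array. The granule array had 6 members higher and 2 lower than the ES array (backgrounds 6.83% and 4.99%) and the Sox1 array 6 higher and 1 lower (3.59% and 3.02%). The granule array had 2 members higher and 3 lower than the Sox1 array (3.66% and 2.09%), a split that was 1 and 5 with quantile normalization and 4 and 1 with centring on reference genes. All genes were at 3.25% and 2.57% with quantile normalization and at 5.85% and 1.51% with centring. The median log2 difference over the 46 members was 0.0 in each comparison, as it was over all genes. The comparisons share arrays and are not independent. Of the 45 called differences, 19 had a further detected probe set of the gene, all 19 had the same sign there, and 11 passed 4-fold there as well.

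**Figure D4:**
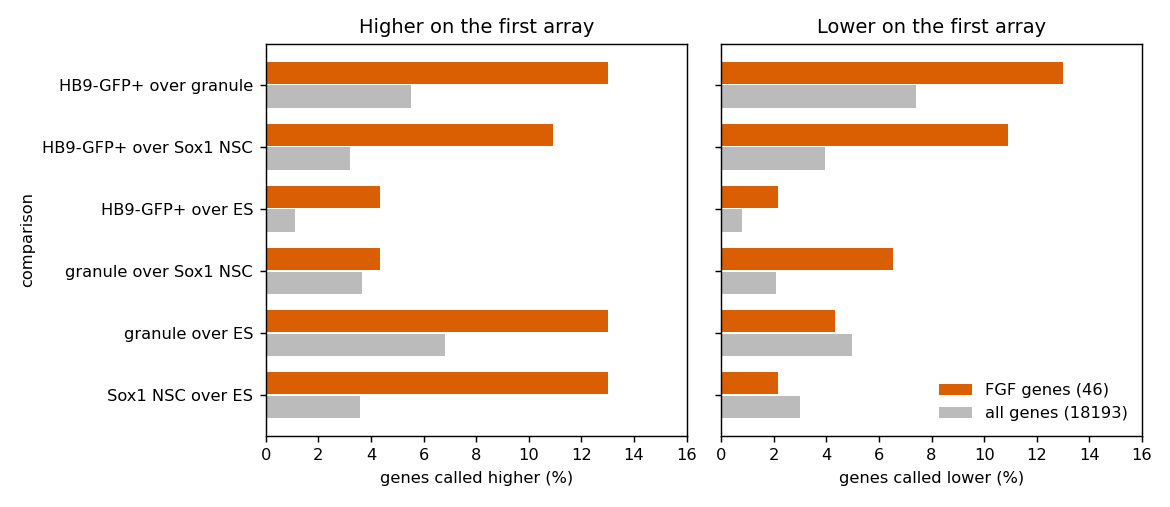
The percentage of the 46 FGF genes (orange bars) and of all 18193 genes (grey bars) called higher (left) or lower (right) on the first array of each comparison; bars start at 0 and carry no error, with 1 array per kind of cell. The orange bar is the longer one except for lower calls of the granule and of the Sox1 array over the ES array. There it stands for 2 and 1 genes. Some longer orange bars stand for as few. They are 2 higher and 1 lower for the HB9-GFP+-labelled array over the ES array, and 2 higher for the granule over the Sox1 array.

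The co-receptors and heparan sulfate genes, shape ligand access to the receptors. Of 21 measured, 14 were called in at least 1 comparison, against 19.3% of all genes. On the granule array 9 were higher and 4 lower than on the ES array (6.83% and 4.99% of all genes), and on the Sox1 array 6 were higher and 2 lower than on the ES array (3.59% and 3.02%). Cdh2, the N-cadherin that associates with FGF receptors, was at 169.1 on the HB9-GFP+-labelled array, 5405.5 with granule cells, 9286.4 with Sox1 cells and 68.5 with ES cells. The glypican gene Gpc6 was at 103.5, 823.4, 1511.0 and 61.3 on these arrays, and the heparan sulfate sulfotransferase gene Hs6st2 at 223.5, 993.6, 1144.6 and 39.0, so that all of these were higher on the neural arrays. Sdc4, a syndecan gene, ran the other way between the ES and granule arrays, at 939.8, 149.4, 831.7 and 3492.5. Sulf1, which trims heparan sulfate, was at 225.8, 59.1, 1570.6 and 1107.8. The HB9-GFP+-labelled array had 2 of the list higher and 1 lower than the ES array (1.11% and 0.813% of all genes), 3 higher and 6 lower than the granule array (5.53% and 7.41%), and 0 higher and 6 lower than the Sox1 array (3.22% and 3.97%). The granule array had 1 higher and 3 lower than the Sox1 array (3.66% and 2.09%).

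Of 17 measured RAS-ERK and phospholipase C transducers, 4 were called in any comparison, a share near the 19.3% of all genes. Map2k1, the kinase MEK1 that activates ERK, was at 4447.4 on the HB9-GFP+-labelled array, 874.9 with granule cells, 1704.8 with Sox1 cells and 4650.8 with ES cells. The docking gene Gab1 was at 8960.9, 5527.6, 2149.2 and 4150.6, the exchange factor gene Sos2 at 448.5, 2171.2, 2180.6 and 915.6, and the ubiquitin ligase gene Cblb at 624.3, 1460.6, 2786.1 and 1057.8 on the same arrays. The calls were 1 higher and 1 lower on the HB9-GFP+-labelled array against the granule array (5.53% and 7.41% of all genes), 1 higher and 2 lower against the Sox1 array (3.22% and 3.97%), and 1 lower on the granule against the ES array (4.99%). The median difference between the Sox1 and ES arrays was 0.17 for this list and 1.14 for the co-receptors and heparan sulfate genes.

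Among 17 other feedback and target genes of ERK, 9 were called in at least 1 comparison, against 19.3% of all genes. Relative to the ES array, the HB9-GFP+-labelled array had 2 higher and 0 lower (1.11% and 0.813% of all genes), the granule array 5 higher and 1 lower (6.83% and 4.99%) and the Sox1 array 4 higher and 1 lower (3.59% and 3.02%). Fos, an immediate early gene, was at 3609.5 on the HB9-GFP+-labelled array, 12716.3 with granule cells, 12435.5 with Sox1 cells and 853.8 with ES cells. Egr2, a zinc finger factor of the same class, was at 242.1, 2706.5, 2210.1 and 44.6, and Ccnd1, which encodes cyclin D1, at 2892.9, 1901.8, 5750.4 and 572.7, so the ES array was lowest for all of them. Spsb4, a ubiquitin ligase adaptor gene, was at 311.8, 1158.3, 4197.5 and 126.7. Ier3 ran the other way, at 2411.4, 608.4, 174.7 and 2492.0. Against the granule array the HB9-GFP+-labelled array had 1 of this list higher and 1 lower (5.53% and 7.41% of all genes), and against the Sox1 array 1 higher and 2 lower (3.22% and 3.97%). The granule array had 1 higher and 1 lower than the Sox1 array (3.66% and 2.09%).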

How the data were processed

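Total RNA of each kind of cell was labelled with biotin and hybridised to 1 array, per the labels' protocols. The authors deposited linear intensities of 45101 probe sets, from 0.1 to 43110.3. GCRMA is the tool listed, with no version, per the submitters' processing notes. Each deposited intensity column had a mean of 500.0 after trimming 2% at each end, as arrays scaled to a fixed target have, and GCRMA gives log2 values, so the step the authors used is uncertain, and no detection flags were used.

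Gene names came from the platform annotation, in which 34958 probe sets had 1 symbol; all 46 members matched RefSeq by gene ID. A gene was represented by the probe set with the highest mean log2 value over the 4 arrays. The 4 medians of log2 signal were averaged to set the low level, 6.30. Calls were checked on simulated data. With 1 array per group no test was run and precision is limited by the number of arrays. The SD of the differences over 18 hybridisation controls was 0.06 to 0.11 log2 units, and that among detected probe sets of a gene 0.46 to 0.67. The named genes are all members called in a comparison, other members by role, and up to 5 called genes of each further list with the largest range. Members and lists were chosen with earlier results of these data known. Alternatives changed the normalization, the probe set rule, the detection level and the size called. Python 3.11.15, NumPy 2.4.6 and pandas 2.3.3 were used. Gene list members absent from the single-symbol probe sets were not analysed here.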

Additional observations from a re-analysis of the deposited data

Results flagged for a closer look

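Etv1, the third ETS factor of this subgroup, entered no comparison because its probe sets carry a second symbol, Gm5454. They held a signal all the same. One probe set was at 814.7 on the HB9-GFP+-labelled array, 434.1 with granule cells, 895.1 with Sox1 cells and 631.4 with ES cells, and another was at 326.7, 359.6, 663.8 and 618.7 on the same arrays, all above the detection level. The third was undetected, at 37.6 or less. Neither detected probe set spanned 4-fold, and RNA of both genes cannot be told apart with them.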

How the results depend on the processing

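No paired analysis was possible because each group has 1 array. Of the 45 called member differences, 42 were called with quantile normalization, 40 with centring on reference genes, 42 without probe sets shared between transcripts and 24 with the mean over probe sets, which includes dark ones. With that mean Fgfr2 turned to -0.0886 between the Sox1 and ES arrays, 2 members were higher and 3 lower on the HB9-GFP+-labelled array than on the Sox1 array, 0 and 0 against the ES array, and 2 were higher on the Sox1 than on the ES array. Centring gave 10 lower against the granule array and 1 higher against the ES array for the HB9-GFP+-labelled array, 4 higher and 1 lower for granule over Sox1, and 10 higher for granule over ES (10.8% of all genes). It moved arrays apart, since the reference genes' median lay 0.45 above their mean over arrays on the HB9-GFP+-labelled array and -0.50 from it on the granule array. Quantile normalization gave 0 lower for the HB9-GFP+-labelled array over ES, and 1 higher and 5 lower for granule over Sox1. With 2-fold calls the HB9-GFP+-labelled array had 7 higher and 12 lower than granule (16.1% and 16% of all genes). It had 6 higher and 13 lower than Sox1 (11.5% and 11.5%), and 6 higher and 3 lower than ES (6.65% and 7.03%). Granule had 7 higher and 11 lower than Sox1 (10.2% and 8.73%) and 13 higher and 6 lower than ES (15.4% and 15.1%), and Sox1 had 13 higher and 4 lower than ES (11% and 11.2%). Detection 2 log2 units above the low level left 11 members detected on the ES array. Alternatives added after seeing the data left the HB9-GFP+-labelled array out of the low level, which kept all 20 called differences among the other arrays, or out of the choice of probe set. The last put Fgf4 on a probe set at 128.0 on the ES array, below detection, so that 1 member was lower on the granule and 0 on the Sox1 array than on the ES array. Choosing probe sets by the linear mean kept all 45 and added Fgf9 on the granule array. Depth has no meaning for these arrays, and for the ligands detected on no array signal and background cannot be told apart.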
